A study of Homo sapiens with 38 samples.

Results

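The surface of a human pluripotent stem cell changes as it leaves the naive state, and 8 genes that mark this change were followed here. SUSD2, CD53, ST6GAL1 and A4GALT are associated with the naive state, and THY1, CD24, SIRPA and B3GAT1 with the later, primed state. They were taken by name from the 57133 genes of the count table, of which 16674 held enough counts to be tested, and all 8 members were among those tested. The samples were 38 libraries of Shef6, an established human embryonic stem cell line, sequenced by QuantSeq from the 3′ end of polyadenylated RNA. All groups, those on Geltrex included, came from cells the labels call serum-adapted, that is, accustomed to dishes coated with serum in place of feeder cells. All cells started as naive cultures in PXGL, which is N2B27 basal medium with the MEK inhibitor PD0325901, the tankyrase inhibitor XAV939, the PKC inhibitor Gö6983 and LIF. In the first experiment (Ex1, 30 libraries) naive cells were on serum coating or Geltrex, and cells plated on Geltrex were taken at days 2, 3, 4, 6 and 8 in N2B27 or E8 and at days 4, 6 and 8 in mTeSR. In the second (Ex2, 8 libraries) naive cells on Geltrex were set beside cells at day 4 in N2B27, in N2B27 with XAV939 (XAV), or in FAX, the same basal medium with XAV939, Activin A and FGF2. Each of the 19 groups had 2 libraries of 1 line. Some legends of the study call such samples technical replicates, so the p-values may measure only technical spread.

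Naive cells resemble the epiblast of the blastocyst, and primed cells that of the embryo after implantation. The passage between them, capacitation, takes place when the naive inhibitors are withdrawn. Surface antigens are used to follow and sort the cells because they can be stained alive. Some antigens are proteins, such as SUSD2, a membrane protein used to isolate naive cells, CD53, a tetraspanin best known from leukocytes, THY1 (CD90) and CD24, both held in the membrane by a GPI anchor, and SIRPA, a receptor of CD47. Others are sugars, and the genes measured are then the enzymes that make them. ST6GAL1 adds sialic acid to galactose in α2,6 linkage, A4GALT makes the globo-series core Gb3, and B3GAT1 adds the glucuronic acid of the HNK-1 (CD57) epitope. RNA was measured here, not the antigen on the cell.

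The genes lie on GRCh38 (GENCODE v44) at chromosome 22, 24181487 to 24189106 (SUSD2, plus strand), chromosome 1, 110871188 to 110899922 (CD53, plus), chromosome 3, 186930325 to 187078553 (ST6GAL1, plus) and chromosome 22, 42692121 to 42721298 (A4GALT, minus). The primed-associated genes lie at chromosome 11, 119415476 to 119424985 (THY1, minus), chromosome 6, 106969831 to 106975627 (CD24, minus), chromosome 20, 1894167 to 1940592 (SIRPA, plus) and chromosome 11, 134378504 to 134412242 (B3GAT1, minus). All 8 are protein-coding.

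RefSeq gene starts (GRCh38.p14) gave a 300-base window, from 250 bases before the start, for 5 members: CD53, ST6GAL1, A4GALT, CD24 and B3GAT1. The set of promoter windows used here held none for SUSD2, THY1 and SIRPA, a limit of that set. The windows of CD53, a gene lost early, of ST6GAL1, which moved little, and of CD24, gained early, are printed because they differ in base composition and in the octamer ATGCAAAT, a motif known to be bound by POU factors such as OCT4. Capitals mark the octamer in either orientation. The sequences run 5′ to 3′ on the strand of the gene, at chr1:110870960-110871259 (plus), chr3:186930276-186930575 (plus) and chr6:106975578-106975877 (minus).
CD53: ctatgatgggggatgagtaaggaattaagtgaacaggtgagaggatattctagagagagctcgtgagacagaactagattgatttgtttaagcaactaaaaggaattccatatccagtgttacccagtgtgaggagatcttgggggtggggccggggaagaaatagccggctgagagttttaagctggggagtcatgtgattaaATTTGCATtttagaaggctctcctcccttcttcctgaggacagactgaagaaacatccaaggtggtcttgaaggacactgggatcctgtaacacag
ST6GAL1: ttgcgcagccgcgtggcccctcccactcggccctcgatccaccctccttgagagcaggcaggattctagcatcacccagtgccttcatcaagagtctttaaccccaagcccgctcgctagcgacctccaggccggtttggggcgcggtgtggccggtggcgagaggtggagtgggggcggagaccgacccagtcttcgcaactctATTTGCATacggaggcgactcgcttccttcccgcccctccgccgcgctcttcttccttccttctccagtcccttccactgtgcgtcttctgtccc
CD24: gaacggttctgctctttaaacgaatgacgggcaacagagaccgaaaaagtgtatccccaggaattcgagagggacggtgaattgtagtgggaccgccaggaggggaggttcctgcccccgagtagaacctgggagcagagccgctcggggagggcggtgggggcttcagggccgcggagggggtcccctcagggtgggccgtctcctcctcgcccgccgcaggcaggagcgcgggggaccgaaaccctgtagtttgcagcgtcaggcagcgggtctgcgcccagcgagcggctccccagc
Of 35116 RefSeq windows of this length, 1.77% held the octamer on either strand. CD53 and ST6GAL1 each held 1 copy, beginning 46 and 45 bases before the RefSeq start, and the windows of A4GALT, CD24 and B3GAT1 held none. The RefSeq starts of CD53 and ST6GAL1 lie 22 and 201 bases downstream of the GENCODE starts given above, so the ST6GAL1 octamer lies inside the GENCODE gene and that of CD53 before it. The CD53 window had 3 CpG dinucleotides, fewer than most (18.2% of windows had fewer; the median was 14), and that of A4GALT had 6. ST6GAL1 had 24, CD24 25 and B3GAT1 42, which 94.2% of windows fell below. These letters are a description of the windows, and no binding or methylation was measured.

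Levels are given in CPM, a gene's counts relative to the TMM-scaled total of its library. A gene was called higher or lower where edgeR's quasi-likelihood test gave a Benjamini-Hochberg adjusted p under 0.05 over all 16674 genes and the fold change was over 2 (1 on the log2 scale). Library totals ran from 3038046 to 5612354 counts (median 4427277), so that 3 counts stood for 0.52 to 1.06 CPM. The labelled states were checked on transcription factors and other state genes. At day 8 the 3 primed genes ZIC2, SALL2 and OTX2 were called higher than in naive cells in each medium, and of 5 naive genes (KLF17, KLF4, DPPA5, DNMT3L and TFCP2L1) the number called lower was 5 for N2B27, 4 for E8 and 5 for mTeSR. The shared factors POU5F1, NANOG and SOX2 were called in no medium. The library names of the Ex2 naive cultures carry d4 while their time label is d0, and both of these libraries had 0 THY1 counts. On a score of the main difference between replicates (20.4% of the variance within groups over 9333 genes), 4 libraries stood apart. They were N2B27 day 2 replicate 2, both E8 day 2 libraries and E8 day 3 replicate 1, at -2.76 to -2.37 where all others lay between -1.07 and 1.36, so results at days 2 and 3 lean on them. Libraries were scored on levels centred over all libraries, so the score also holds differences between conditions. The E8 day 2 replicates scored alike (-2.50 and -2.47), and there the score cannot be told from the condition. As a covariate it can take up change with the condition too. In bulk RNA, fewer cells with a transcript and less of it per cell cannot be told apart.

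Against the 6 naive libraries, the naive-associated genes were called lower in 20 of 60 pairs of gene and later condition, where 7.18% of all tests over the same 15 conditions were called lower. The primed-associated genes were called higher in 58 of 60, against 13.7% of all tests. At day 2 alone the shares of all genes called higher and lower were 9.86 and 6.3% in N2B27 and 13.9 and 10.7% in E8. Leaving out days 2 and 3, a count chosen after seeing the data, the numbers were 17 of 44 and 44 of 44. The share of all genes over these later conditions together was not taken. At day 8 alone it was 7.03 to 9.24% lower and 16.9 to 18.2% higher in the 3 media. The 4 naive-associated genes differed among themselves. CD53 accounted for 14 of the 20 calls, SUSD2 for 5 and A4GALT for 1, and ST6GAL1 for none. No primed-associated gene was called lower, and the naive-associated SUSD2 was called higher at 2 points.

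**Figure D1:**
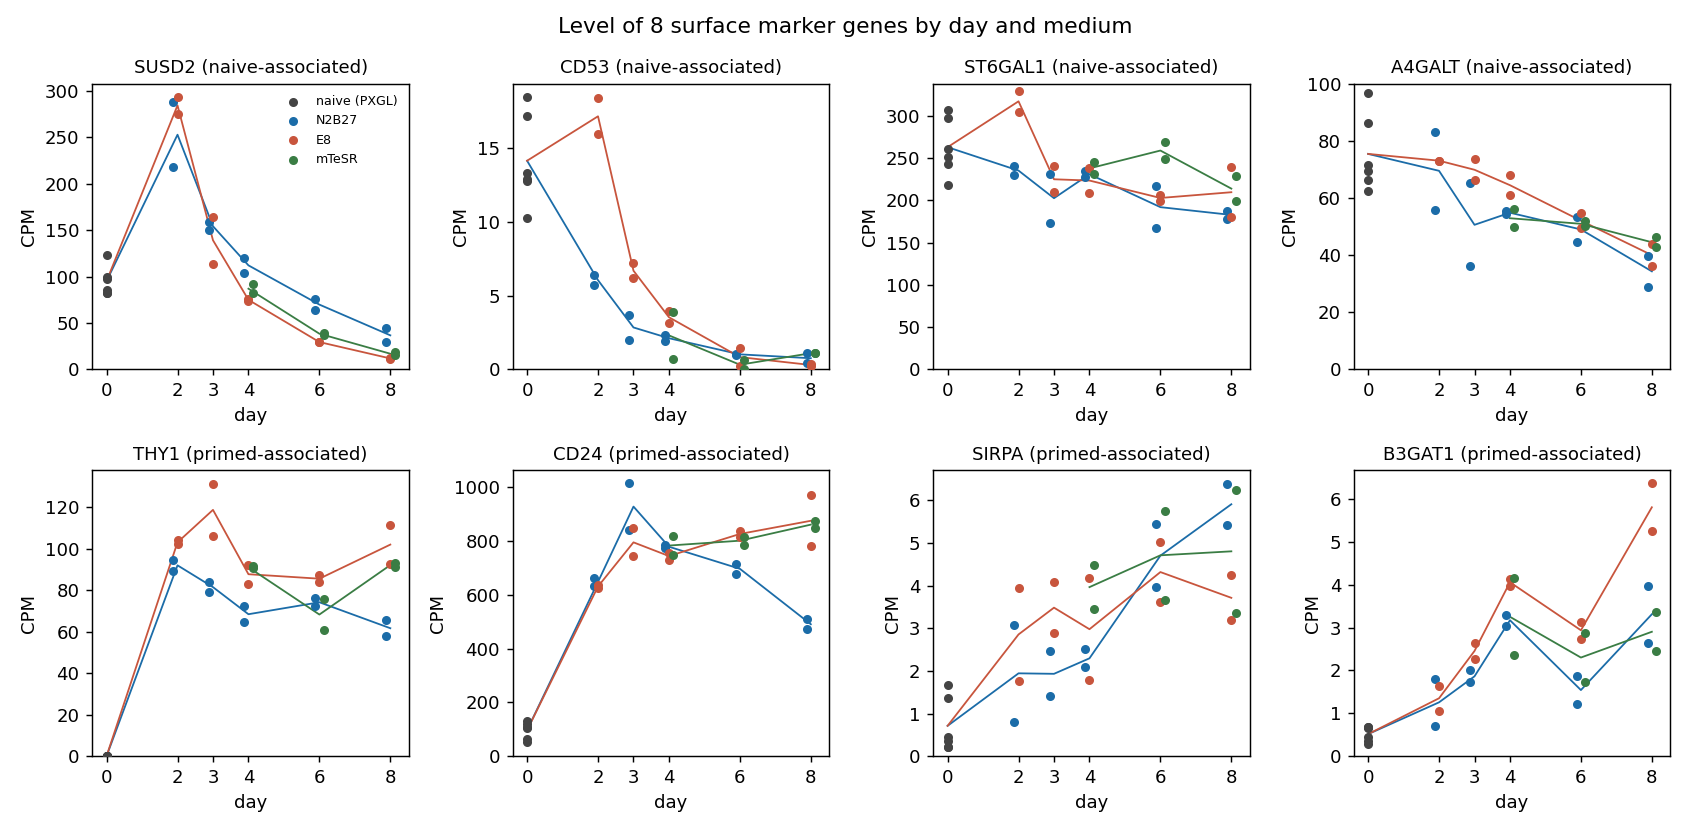
CPM (linear axis from 0) of each gene by day, 1 point per library: grey, the 6 naive libraries of both experiments, drawn at day 0; colours, Ex1 libraries in N2B27, E8 and mTeSR, with lines through the means and, for N2B27 and E8, starting at the naive mean. SUSD2 peaks at day 2 before it falls, CD53 falls from the start in N2B27, and THY1 and CD24 are up at the first sampled day.

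SUSD2 first rose and then fell. The naive libraries lay between 82.1 and 124 CPM with a mean of 95.2 ± 15.8 (SD, n = 6). At day 2 the libraries read 218 and 288 CPM in N2B27 and 294 and 275 in E8, all above every naive library. On the log2 scale the rise over naive cells was 1.41 ± 0.14 (SE) in N2B27, with an adjusted p of 4.68e-10, and 1.58 ± 0.14 in E8, with 3.12e-11. Of these 4 libraries, 3 stood apart on the library score. With that score as a covariate, which can also take up change with the condition, the rises were 1.04 and 1.06, still called and close to the fold threshold. These were the only calls of a naive-associated gene in the upward direction. SUSD2 then declined at each sampled day. In N2B27 the libraries read 159 and 150 CPM at day 3, 104 and 120 at day 4 in Ex1, 64.2 and 75.6 at day 6, and 29.3 and 44.3 at day 8. In this medium SUSD2 was first called below naive cells at day 8, by -1.36 ± 0.17 on the log2 scale (adjusted p 2.47e-08). In E8 the libraries read 165 and 114 CPM at day 3, 76.0 and 74.0 at day 4, 29.5 and 29.6 at day 6, and 12 and 11.8 at day 8. The first call in E8 was at day 6, -1.69 ± 0.17 (adjusted p 7.42e-10), and by day 8 the change was -3.0 ± 0.20 (adjusted p 1.15e-14). mTeSR lay between the others, at 91.8 and 82.2 CPM at day 4, 37.6 and 39.4 at day 6, and 15.5 and 18.5 at day 8. Its first call was also at day 6 (-1.30 ± 0.17, adjusted p 7.03e-08), and no earlier day than 4 was sampled in this medium. From day 6 on, no library of the 3 media overlapped the naive range.

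CD53 fell sooner. Naive libraries held 54 to 62 counts each, 10.3 to 18.4 CPM, with a mean of 14.1 ± 3.05. In N2B27 the pair of libraries read 6.4 and 5.7 CPM at day 2 and 3.69 and 2.00 at day 3, below the whole naive range. The day 2 change was -1.20 ± 0.34 on the log2 scale (adjusted p 0.00573), and without N2B27 day 2 replicate 2 it was -1.12 with an adjusted p of 0.0799. In E8 the day 2 libraries read 15.9 and 18.4 CPM, overlapping the naive range (0.30 ± 0.30, adjusted p 0.44). At day 3 they read 7.19 and 6.19, called lower at -1.06 ± 0.33 (adjusted p 0.0121). That E8 day 3 call sat at the fold threshold: against the naive cultures of Ex1 alone the change was -0.88, against those on serum coating -0.97, with experiment as a covariate -0.89, and without either Ex2 naive library -0.99 or -0.98. Without E8 day 3 replicate 1 or 2 its adjusted p was 0.0594 or 0.11. In mTeSR CD53 was already called lower at the first sampled day, day 4 (adjusted p 3.71e-06), although its libraries were far apart at 0.706 and 3.91 CPM. By day 8 few CD53 counts were left. N2B27 held 2 and 6 counts, E8 2 and 1, and mTeSR 4 and 4, against 349 counts over the 6 naive libraries. Pooled over libraries, naive cells held 17.1 times the N2B27 day 8 level (95% exact Poisson interval 8.6 to 40, counting error only). The same ratio was 43.5 for E8 (14.8 to 212) and 12.3 for mTeSR (6.2 to 28.8), with overlapping intervals. CD53 is best known from leukocytes, so markers of such cells were read beside it. PTPRC (CD45) averaged 0.17 CPM in naive cells, and SPI1 was at 0 in all 6 libraries. Of the 6 genes of the leukocyte list, 2 were tested, CD52 and CORO1A. CD52 was called lower at day 8 in each medium, from 18.9 CPM in naive cells to 3.50 with N2B27, 0.634 with E8 and 1.39 with mTeSR. CORO1A stood at 4.96 CPM in naive cells and at 1.84, 2.11 and 2.48 in these media, called lower in N2B27 and E8 and just under the fold threshold in mTeSR (adjusted p 0.00729). At day 8 the shares of all genes called lower were 7.03, 9.24 and 8.2%. The summed list ran from 14.6 to 39.0 CPM in naive cells and at day 8 its libraries read 6.39 and 7.04 CPM (N2B27), 3.18 and 3.77 (E8), and 3.80 and 5.04 (mTeSR). Its part in the CD53 result was not tested.

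ST6GAL1 was the member called in no condition. Its naive libraries ran from 218 to 307 CPM (263 ± 33.7), and its day 8 libraries read 178 and 187 in N2B27, 239 and 180 in E8, and 199 and 228 in mTeSR. The N2B27 day 8 pair lay below every naive library, and the others overlapped them. The largest change against naive cells among all 15 conditions was -0.53 ± 0.13 on the log2 scale at day 8 in N2B27 (95% interval -0.79 to -0.27, adjusted p 0.000984), below the fold threshold. In E8 and mTeSR at day 8 the changes were -0.33 (adjusted p 0.0309) and -0.30 (adjusted p 0.0534).

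A4GALT levels were lower at day 8 in all media. Naive libraries ran from 62.4 to 96.8 CPM (75.6 ± 13.2), and the day 8 libraries read 29.1 and 39.7 in N2B27, 36.2 and 44 in E8, and 46.4 and 42.8 in mTeSR, all below every naive library. N2B27 day 8 alone was called, at -1.12 ± 0.18 on the log2 scale (adjusted p 5.11e-06). E8 at -0.91 (adjusted p 7.69e-05) and mTeSR at -0.75 (adjusted p 0.000915) passed the p threshold only. The single call depended on the reference. It was -0.96 against the naive cultures of Ex1, -0.97 against those on serum coating, and -0.92 without N2B27 day 8 replicate 1. With 1 library left out the gene also passed elsewhere, at -1.04 in E8 at day 8 without replicate 2 and at -1.05 in N2B27 at day 3 without replicate 2. The position also limits it: CYB5R3, on the same strand, spans 28750 bases of A4GALT with its 3′ end and shares 74 of its 3358 exonic bases, so reads near them could be split between the genes. CYB5R3 itself stood at 94.6 ± 15.6 CPM in naive cells and 110 ± 7.14 at day 8 in N2B27 (adjusted p 0.205).

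THY1 went from almost no counts to a level held in all later conditions. The 6 naive libraries held 2 THY1 counts in all. At day 2 the libraries read 94.6 and 89.5 CPM in N2B27 and 102 and 104 in E8. The first mTeSR libraries, at day 4, read 91.5 and 90.7. The pooled day 2 level was 1180 times the naive level in N2B27 (326 to 9780, exact Poisson, counting error only) and 1320 times in E8 (365 to 10900), the width coming from the 2 naive counts. THY1 was called higher in all 15 conditions, with adjusted p from 2.48e-27 to 3.11e-25. After day 2 it did not climb further in N2B27, where means were 81.5, 68.5, 74.2 and 61.7 CPM at days 3, 4, 6 and 8 of Ex1. No step between consecutive sampled days after day 2 was called in any medium. One passed the p threshold alone, from day 4 to day 6 in mTeSR (-0.42, adjusted p 0.0479). THY1 is also a fibroblast antigen. The summed fibroblast list (7 genes) rose with it, from 1.97 to 4.78 CPM in naive cells to 42.0 and 47.4 at day 2 and 170 and 180 at day 8 in N2B27. Of its 5 tested genes 4 were called higher at day 8 in each medium, where 16.9% of all genes were called higher in N2B27, 18.2% in E8 and 16.9% in mTeSR. Among them were COL1A2 (0.927 to 140 CPM in N2B27) and COL1A1 (1.44 to 22.6). The list also holds the matrix genes DCN and LUM, which were at 0 and 1.00 CPM at day 8 in N2B27 and at 0.0937 CPM each in E8. THY1 stood at 92.1 ± 3.66 CPM at day 2 in N2B27 and 61.7 ± 5.55 at day 8, days on which the list went from a median of 44.7 to 175 CPM. The part of these genes in the THY1 result was not tested. Antisense genes overlap THY1 (USP2-AS1, covering its 3′ end, and THY1-AS1), and the strand setting of the counting is not given in the sources used here. USP2-AS1 held 244 counts over all 38 libraries.

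CD24 was present in naive cells and rose from there. Ex1 naive libraries ran from 106 to 130 CPM and Ex2 ones read 53.6 and 63.1. At day 2 the libraries read 632 and 664 CPM in N2B27 and 627 and 635 in E8, with no overlap with naive cells. The N2B27 change was 2.73 ± 0.15 on the log2 scale (adjusted p 5.85e-16), and that of E8 was 2.69 ± 0.16 (adjusted p 1.04e-15). N2B27 libraries were highest at day 3, at 1014 and 841 CPM, and then fell to 677 and 716 at day 6 and 510 and 471 at day 8. E8 and mTeSR showed no such fall. E8 libraries read 780 and 971 CPM and mTeSR libraries 874 and 847 at day 8, above both N2B27 libraries and far above every naive library. At day 4 in Ex2 the CD24 change against the 6 naive libraries was 3.19 in XAV and 3.15 in FAX, and 3.92 and 3.89 against the naive libraries of Ex2 alone. The annotated CD24 pseudogene rows CD24P1, CD24P2 and CD24P4 held 0, 0 and 2 counts in all, so few reads were assigned to them.

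SIRPA and B3GAT1 rose to low levels only, and each library rests on few counts. SIRPA had 1 or 2 counts in each Ex1 naive library and 4 and 6 in the Ex2 ones. It reached 29 and 30 counts (6.39 and 5.42 CPM) at day 8 in N2B27, 17 and 18 (3.18 and 4.24 CPM) in E8 and 23 and 12 (6.24 and 3.36 CPM) in mTeSR. By pooled counts this was 9.38 times the naive level in N2B27 (5.33 to 17.5, exact Poisson), 5.85 times in E8 (3.15 to 11.3) and 7.73 times in mTeSR (4.17 to 15), with adjusted p of 1.01e-06, 0.000127 and 1.96e-05 in edgeR's test. These folds hold for the 6 naive libraries pooled. On the log2 scale the day 8 changes were 3.16 in N2B27, 2.48 in E8 and 2.87 in mTeSR against that pool, and 4.18, 3.51 and 3.89 against the naive libraries of Ex1 alone, the experiment of these cells. SIRPA was called from the first sampled day in each medium, but the early calls depended on single libraries and on the naive reference. Against the Ex1 naive libraries alone they were larger, at 2.54 (adjusted p 0.0026) at day 2 and 2.56 (adjusted p 0.00238) at day 3 in N2B27, and 3.16 (adjusted p 0.000169) at day 2 in E8, where the pooled reference gave 1.52, 1.54 and 2.13. At day 2 in N2B27 (4 and 13 counts, adjusted p 0.0441, overlapping the naive range) the log2 change was 1.52 with both libraries and 0.33 without replicate 2 (adjusted p 0.844). At day 3 in N2B27 (adjusted p 0.0446) the call was lost without either replicate (adjusted p 0.393 and 0.0523) and with no filter on low counts (adjusted p 0.0504). Leaving out 1 Ex1 naive library at a time also ended both calls, with adjusted p from 0.0693 to 0.0851. The E8 day 2 call (adjusted p 0.00401) was lost without replicate 2, at 1.45 with an adjusted p of 0.228. The day 4 call in E8 was lost without replicate 1 (1.45, adjusted p 0.151). With the score on which 4 libraries stood apart as a covariate, the SIRPA calls at day 2 in N2B27 and E8 and at day 3 in N2B27 were lost (adjusted p 0.418, 0.207 and 0.0767). That score can also take up change with the condition. Against the Ex2 naive libraries alone, where SIRPA was highest among naive cells, the XAV and FAX day 4 calls were lost too (0.92, adjusted p 0.214, and 1.05, adjusted p 0.149). Related SIRP rows held little: SIRPB1 106 counts over all libraries, at most 8 in any 1. An antisense lncRNA overlaps 208 bases of SIRPA, not at its 3′ end.

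B3GAT1 followed with a delay in the calls. Naive libraries held 1 to 3 counts each, 13 in all. Day 2 libraries held 9 and 3 counts in N2B27 and 3 and 5 in E8, not called (adjusted p 0.0578 and 0.0735). At day 3 they held 7 and 10 in N2B27 (1.72 and 2.00 CPM) and 11 and 11 in E8 (2.64 and 2.27 CPM), called with adjusted p of 0.00245 and 6.71e-05. E8 then went to 28 and 27 counts at day 8 (5.25 and 6.36 CPM), 11.3 times the naive level by pooled counts (6.1 to 22.6, exact Poisson). N2B27 at day 8 held 12 and 22 counts (2.64 and 3.97 CPM, 6.66 times, 3.42 to 13.7) and mTeSR 9 and 12 (2.44 and 3.36 CPM, 5.71 times, 2.73 to 12.4). These intervals overlapped. The N2B27 calls at day 3 and day 6 were lost without replicate 2 (adjusted p 0.058) and without replicate 1 (adjusted p 0.205). The day 6 call was also lost against naive cells on serum coating alone (1.44, adjusted p 0.0669) and with no filter on low counts (1.51, adjusted p 0.0657), and without replicate 2 the day 2 libraries gave a call (adjusted p 0.0382).

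Set in order by the first called day, the gains came before most losses in N2B27 and E8, and CD53 was called lower as early as some of them. THY1, CD24 and SIRPA were called at day 2 and B3GAT1 at day 3 in both N2B27 and E8, and all 4 at day 4, the first sampled, in mTeSR. Losses were spread over time: CD53 at day 2 in N2B27, 3 in E8 and 4 in mTeSR, SUSD2 at day 8 in N2B27 and 6 in E8 and mTeSR, A4GALT at day 8 in N2B27 alone, and ST6GAL1 at no day. A first called day depends on replicate number, on the days sampled and on the starting level, and says nothing of days between. THY1, SIRPA and B3GAT1 started from 0 to 6 counts a naive library, where few added counts make a 2-fold gain. SUSD2, ST6GAL1 and A4GALT had to fall more than 2-fold from naive means of 75.6 to 263 CPM. The steps between consecutive sampled days, 96 pairs of gene and step, held 17 calls, where 5.35% of all tests over the same steps were called. Of these, 8 were increases, all from naive Ex1 cells to day 2, in SUSD2, THY1, CD24 and SIRPA in both media. The other 9 were decreases of CD53 or SUSD2, of which SUSD2 had 5, all in E8 and mTeSR. In N2B27 each later SUSD2 step was downward but under the fold threshold (-0.46 to -0.91), and the last, from day 6 to day 8, passed it without N2B27 day 8 replicate 2 (-1.25) or day 6 replicate 1 (-1.03). Single steps rest on few libraries: each of the 4 called CD53 steps was lost with some library left out, with adjusted p of up to 0.642. The CD53 step to day 2 in N2B27 was at the fold threshold, at -0.99 with RLE scaling. The SIRPA step in N2B27 was lost without day 2 replicate 2 (adjusted p 0.327) and with the library score as a covariate (adjusted p 0.0535). The SUSD2 step from day 2 to 3 in E8 fell short of the fold in 5 settings, at -0.79 without E8 day 3 replicate 2, -0.99 without E8 day 2 replicate 1, -0.77 with the library score as a covariate, -0.92 with library totals and -0.97 with no filter. Without E8 day 3 replicate 2 the next SUSD2 step in E8, to day 4, was called instead (-1.13). The SUSD2 step from day 6 to 8 in E8 had an adjusted p of 0.0538 in a fit to the compared libraries only, and that from day 6 to 8 in mTeSR had an adjusted p of 0.0522 without mTeSR day 8 replicate 1. No primed-associated gene had a called step after day 2, although CD24 steps passed the p threshold alone. From day 2 to day 3 CD24 rose by 0.52 in N2B27 (adjusted p 0.00125) and by 0.33 in E8 (adjusted p 0.0199). In N2B27 it fell by 0.51 from day 6 to day 8 (adjusted p 0.00258).

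The question of medium was put directly by comparing media at equal days. Of 88 pairs, 4 were called (3.25% of all tests over the same comparisons), a count near that share. In the comparisons that held them the share was 4.55% for E8 against N2B27 at day 2, 5.28% at day 6 and 7.29% at day 8, and 3.8% for mTeSR against N2B27 at day 8. SUSD2 was lower in E8 than in N2B27 at day 6 (-1.24 ± 0.18 on the log2 scale, adjusted p 7.65e-06) and day 8 (-1.64 ± 0.21, adjusted p 7.39e-07), and lower in mTeSR than in N2B27 at day 8 (-1.13 ± 0.21, adjusted p 0.000375). Without N2B27 day 8 replicate 2 the last was -0.79. CD53 at day 2 was higher in E8 than in N2B27 (1.5 ± 0.36, adjusted p 0.0053), which without E8 day 2 replicate 2 was 1.40 with an adjusted p of 0.0652. CD53 at day 3 was 1.25 higher in E8 but did not pass (95% interval 0.37 to 2.14, adjusted p 0.081), and by day 6 both media were near the floor of 3 counts.

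**Figure D2:**
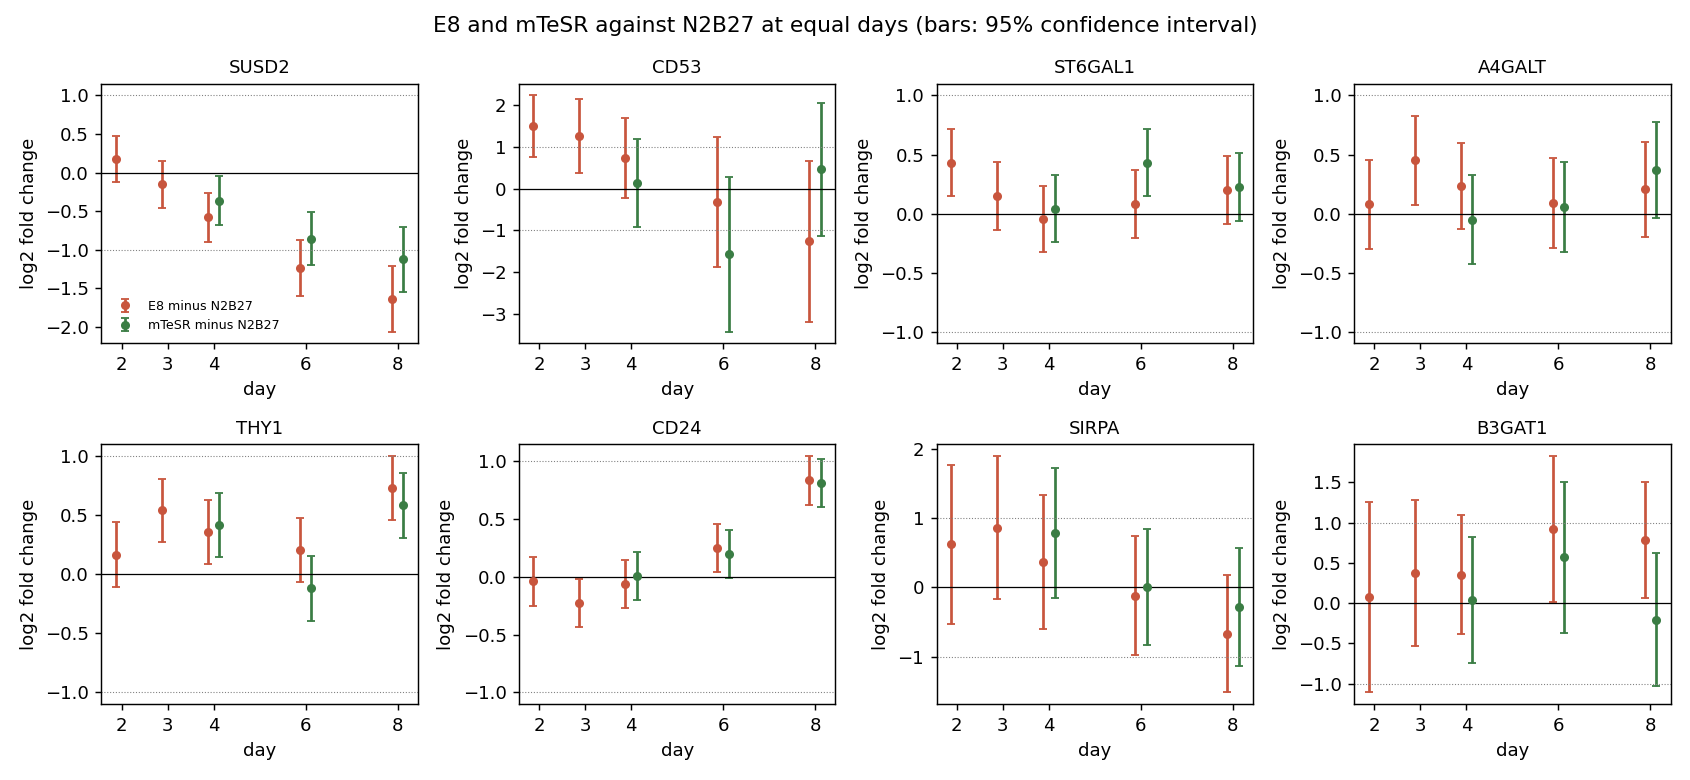
Log2 fold change of E8 (red) and mTeSR (green) against N2B27 at equal days, with 95% confidence intervals from the fit over 19 groups. Dotted lines mark the fold threshold of 1 in either direction. The SUSD2 points go down from day 2 to day 8, to -1.64 in E8, and the CD24 points go up at day 8, to 0.83 in E8 and 0.81 in mTeSR.

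A further 9 of the 88 pairs passed the p threshold without the fold. CD24 at day 8 was higher in E8 (0.83 ± 0.10, adjusted p 3.76e-07) and mTeSR (0.81 ± 0.10, adjusted p 1.96e-06) than in N2B27. THY1 was higher in E8 at day 3 (0.54, adjusted p 0.0116) and day 8 (0.72, adjusted p 0.000199), and in mTeSR at day 8 (0.58, adjusted p 0.00443). SUSD2 was lower in E8 at day 4 (-0.58, adjusted p 0.0167) and mTeSR at day 6 (-0.86, adjusted p 0.00125). The last were small ST6GAL1 differences, 0.43 in E8 at day 2 (adjusted p 0.0363) and 0.43 in mTeSR at day 6 (adjusted p 0.0465). No member was called between mTeSR and E8 at days 4, 6 or 8, where 0.084, 1.1 and 5.31% of all tests were. The smallest adjusted p there was 0.0809, for B3GAT1 at day 8 (-0.99, 95% interval -1.77 to -0.21).

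The interaction test asks whether the whole course over days differed. Between E8 and N2B27 it passed for SUSD2 (adjusted p 1.78e-05) and CD24 (adjusted p 3.91e-05), and for 11% of all genes. Between mTeSR and N2B27 it passed for CD24 (adjusted p 0.00207), and for 2.18% of all genes, with SUSD2 at 0.223 and THY1 at 0.0849, which was 0.0284 in a fit to the compared libraries only. Between mTeSR and E8 it passed for no member and 0.918% of genes. Markers of other cell types were summed at day 8, with no test between media. The 5 endoderm and hypoblast markers summed to 152 and 171 CPM in N2B27, 18.1 and 22.7 in E8 and 82.3 and 85.2 in mTeSR, from 0.683 to 4.21 in naive cells. The 9 trophectoderm and amnion markers summed to 92.3 and 117 CPM in N2B27, 27 and 32.5 in E8 and 23.8 and 32.3 in mTeSR, from 9.96 to 18.0 in naive cells. The 6 neural markers lay closer together, at medians of 50.2, 56.5 and 36.3 CPM. A sum can rest on a single gene, and no such cells were identified. The part of these markers in the SUSD2 and CD24 differences was not tested.

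Signalling supplements were compared at day 4 within Ex2. Neither XAV939 nor XAV939 with FGF2 and Activin A gave a called difference from N2B27, or from each other, in any of 24 pairs (0.306% of all tests were called). DESeq2 gave 0 calls as well, 1 pair had an unadjusted p under 0.05, and the smallest adjusted p was 0.49, for THY1 in FAX against N2B27 (0.30, 95% interval 0.03 to 0.58). Fitted to the compared libraries only, 3 pairs passed the p threshold without the fold, SUSD2 in FAX against XAV (0.27, adjusted p 0.0207) and against N2B27 (0.25, adjusted p 0.0363), and CD24 in XAV against N2B27 (0.17, adjusted p 0.0286). SUSD2 libraries read 128 and 139 CPM in N2B27, 132 and 134 in XAV and 156 and 163 in FAX. XAV and N2B27 SUSD2 values overlapped, with an interval of the log2 difference from -0.31 to 0.31, and those of FAX lay above both, with an interval from -0.05 to 0.57. CD24 intervals ran from -0.02 to 0.39 for XAV and from -0.06 to 0.36 for FAX. For CD53 the intervals were wide, -1.99 to 0.29 for XAV and -1.01 to 1.1 for FAX, at 6 to 15 counts a library, so a difference within these intervals was not detectable at this depth.

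**Figure D3:**
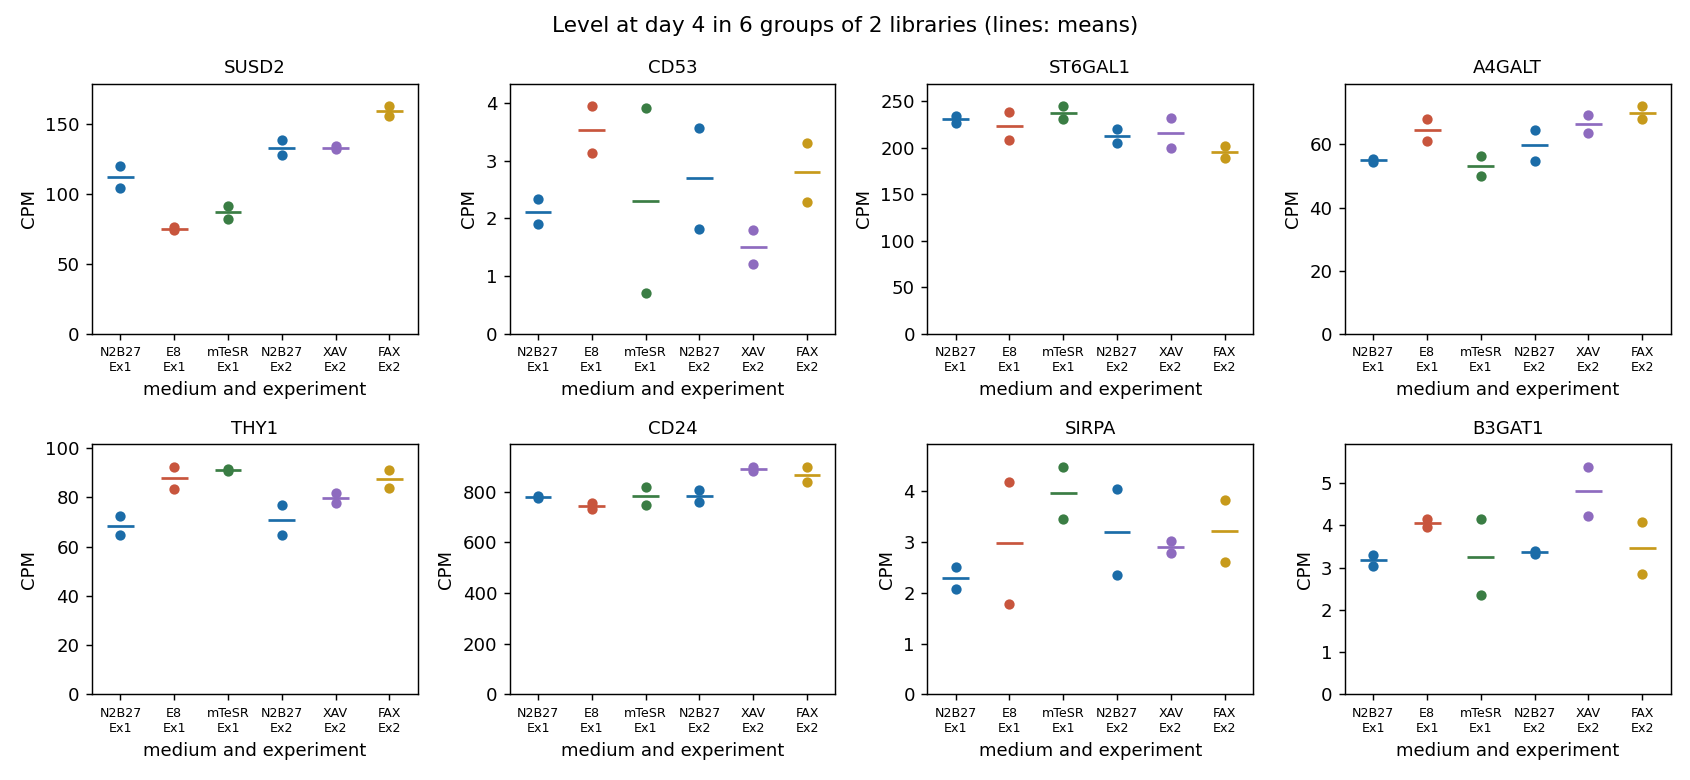
CPM (linear axis from 0) at day 4 in the 6 groups sampled that day, 2 libraries each, with lines at the means; Ex1 holds N2B27, E8 and mTeSR, and Ex2 holds N2B27, XAV and FAX. THY1 lies between 64.7 and 92.3 CPM and CD24 between 731 and 897 in all 12 libraries, while SUSD2 is lowest in E8 (76.0 and 74.0 CPM) and highest in FAX (156 and 163).

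Coating and experiment gave a check of the reference, with 1 call in 24 pairs (1.91% of all tests over these comparisons). Between naive cells on Geltrex and on serum coating no member was called (0.048% of all genes were), the largest difference among members above the floor being SUSD2 at -0.43 (adjusted p 0.195). Between the Geltrex naive cultures of Ex2 and Ex1, CD24 was lower in Ex2 by 1.03 ± 0.12 on the log2 scale (adjusted p 5.56e-07), where 4.67% of genes were called. It was -0.92 without replicate 1 of either culture. At day 4 in N2B27 no member was called between experiments (1.01% of genes were), and the CD24 difference was 0.01 (95% interval -0.20 to 0.21).

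Genes whose 19 group means followed a member most closely were found among 9044 genes reaching 20 CPM in some group, by Pearson's r of log2 CPM. The correlations are a description, over groups that share a time course. THY1 was near 0 in the 3 naive groups and varied far less among the others, so its r mostly restates naive cells against the rest: THY1 and CD24 had a Pearson r of 0.974 and a Spearman rho of 0.458. Next to THY1 were SPRY4 (0.995), a feedback inhibitor of receptor tyrosine kinase signalling, KRT18 (0.994), an epithelial keratin, and GLI2 (0.989), a transcription factor of the Hedgehog pathway. CD24 was followed by the telomere protein gene TERF1 (0.987), FOXD3-AS1 (0.981) and IL17RD (0.98). The nearest to SUSD2 were NLRP2 (0.949), AHSA1 (0.946) and RNF34 (0.945). For CD53 they were ACTR6 (0.961), MRPL48 (0.952) and TMEM109 (0.948), for A4GALT LRPAP1 (0.929), JPT1 (0.926) and WDR83OS (0.925), and for ST6GAL1 DNAJC11 (0.869), LRPPRC (0.868) and TBC1D14 (0.848), the least close. SIRPA had GADD45A (0.949), LRP8 (0.943) and DMKN (0.942), and B3GAT1 had ETNK1 (0.936), ZCCHC24 (0.918) and EPHA2 (0.916), both at counts where noise enters the mean. With a prior count of 0.5 in place of 2, PCDH19 entered for CD24 in place of IL17RD and TRIB1 for B3GAT1 in place of EPHA2, and the other genes named stayed.

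A list of 11 glycolipid genes was read beside A4GALT. It holds ganglioside enzymes (ST3GAL5, B4GALNT1 and ST8SIA1) as well as globo-series ones, so it does not describe the globo series alone. Of these 11 genes 10 were tested, and at day 8 against naive cells 3 were called higher and 1 lower in N2B27, 4 and 1 in E8, and 4 and 1 in mTeSR, where 16.9, 18.2 and 16.9% of all genes were called higher and 7.03, 9.24 and 8.2% lower. The list's median log2 change was 0.44 in N2B27, 0.17 in E8 and 0.20 in mTeSR, against -0.03, 0.00 and -0.02 over all genes. The summed level of the list ran from 458 to 716 CPM in naive cells and lay within that range at day 8 in each medium, at medians of 513, 559 and 525 CPM. B3GALT5, the enzyme that extends the globo-series chain towards SSEA-3, averaged 2.03 ± 0.923 CPM in naive cells. At day 8 it stood at 21.6 ± 2.18 in N2B27, at 47.2 ± 6.56 in E8 and at 53.2 ± 5.04 in mTeSR, with adjusted p of 6.88e-13, 2.44e-17 and 1.17e-17. B4GALT6, a lactosylceramide synthase, went from 15.4 to 42.3, 48.7 and 43.8 CPM. Among 9 tested sialylation genes 2 were called higher and 0 lower in N2B27, and 2 and 1 in both E8 and mTeSR, with median log2 changes of -0.20, -0.20 and 0.02. The summed list had a median of 458 CPM in naive cells and of 365, 311 and 359 CPM in these media. CMAS, which activates sialic acid, rose from 23.5 ± 4.19 CPM to 53.6 ± 1.75 in N2B27 (adjusted p 2.75e-09). Of 6 genes of the HNK-1 pathway 1, 2 and 2 were called higher in N2B27, E8 and mTeSR and 0, 1 and 0 lower. Of 5 tested tetraspanins other than CD53, N2B27 had 1 called higher and 1 lower, mTeSR 1 higher, and E8 none. Of 3 tested genes beside SIRPA in the SIRP and CD47 list, 1 was called in N2B27 and 0 in the other media. This was CD47, the ligand of SIRPA, named after its value was seen, at 13.5 ± 4.02 CPM in naive cells and 6.07 ± 1.69 at day 8 in N2B27 (adjusted p 0.00144).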

How the data were processed

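RNA of 38 Shef6 libraries was made into QuantSeq 3′ libraries and read as single ends. The authors processed the reads with nf-core/rnaseq (FastQC 0.11.9, STAR 2.7.10a and Salmon 1.9.0) on hg38, and the deposited values are whole-number counts per gene, not normalized. The annotation release and the strand setting are not given in the sources used here.

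Library totals were 3038046 to 5612354 counts. Genes were filtered with filterByExpr, which kept 16674 of 57133 genes and 99.65% of the counts, and scaled by TMM in edgeR 4.0.16 (R 4.3.3). Quasi-likelihood tests were fitted over all 16674 genes, once with 16 levels in which the 6 naive libraries are pooled, for comparisons with naive cells, and once with all 19 groups for the rest. The biological coefficient of variation was 13.4% and 10% in these fits. Standard errors were taken from the fold change and F, and adjusted p-values are Benjamini-Hochberg values over all genes tested. Where naive cells held few counts, pooled counts were compared by exact 95% Poisson intervals, which cover counting error only. Scripts were tested on simulated data. Replicates of a group differed by more than sampling noise (chi-square per degree of freedom 1.35 to 10.2 over 19 pairs), so none was a repeat deposit.

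All 8 members were described. Of the gene lists, up to 3 genes were named, those with the largest change among genes called at day 8 in N2B27 and reaching 20 CPM. Markers of other cell types were named outside this rule, after their values were seen. The members and lists were chosen with earlier results of these data known. Alternatives were RLE scaling, library totals, other filters, DESeq2 1.42.0, fits to the compared libraries, a replicate block, other naive references, a library score as covariate, no fold threshold and leaving out each library. Promoter sequences are from RefSeq and positions from GENCODE v44 on GRCh38.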

Additional observations from a re-analysis of the deposited data

Results flagged for a closer look

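Courses over days differed between media for SUSD2 between E8 and N2B27 (edgeR interaction, adjusted p 1.78e-05), for CD24 between E8 and N2B27 (adjusted p 3.91e-05) and for CD24 between mTeSR and N2B27 (adjusted p 0.00207), out of 24 such tests on the members. At day 8 SUSD2 was lower in E8 (11.9 ± 0.153 CPM) than in N2B27 (36.8 ± 10.6), and CD24 was higher in E8 (875 ± 135) and mTeSR (861 ± 19) than in N2B27 (491 ± 27.5).

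Among the 4 N2B27 day 4 libraries of both experiments, 1 Ex2 library lay apart for A4GALT, at 64.7 CPM where the others lay between 54.5 and 55.5. Its gap to the nearest library was 0.903 of the range. This was 1 of 16 such checks, and chance alone gives about 1 in 20.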

How the results depend on the processing

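The largest shifts came from the fold threshold. Without it, 36 instead of 20 naive-associated pairs were called lower, 13 instead of 4 pairs between media, and 26 instead of 17 steps. With days 2 and 3 left out, a count chosen after seeing the data, 17 of 44 naive-associated and 44 of 44 primed-associated pairs against naive cells were called, 3 of 72 between media, and 6 of 48 steps. No share over all genes was taken for these counts, nor for those without the fold threshold. Leaving out 1 library at a time gave 19 to 21 naive-associated calls, 56 to 58 primed-associated calls, 3 to 5 between media, 0 to 0 for XAV and FAX, 15 to 17 steps, 3 to 3 courses and 0 to 1 between coatings or experiments. Fits to the compared libraries gave 48 primed-associated calls, 12 steps and 4 instead of 3 courses, the added one THY1 between mTeSR and N2B27 (adjusted p 0.0284). In these fits 338 of 376 single results could be tested. The missing primed-associated calls were of SIRPA and B3GAT1, which fell below the filter on low counts in some of them, and none that was tested was lost. No called value changed sign in any setting run.

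Replicate numbers did not pair the samples, since deviations of same-numbered libraries correlated between -0.35 and 0.258 over 171 pairs of groups (median 0.0031), 7 of them above 0.1. With the replicate block 20 naive-associated and 58 primed-associated pairs were called, with 4 between media, 0 for XAV and FAX, 17 steps, 3 courses and 1 between coatings or experiments, and none of 376 single results changed its call. Depth limits SIRPA, B3GAT1 and late CD53, where libraries held few counts and 1 library could end a call.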

Other observations

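Other surface genes also changed by day 8. Of 15 tested surface genes outside the members, 6 were called higher and 3 lower than in naive cells in N2B27, 8 and 3 in E8, and 7 and 3 in mTeSR. Over all genes the shares called higher and lower were 16.9 and 7.03% in N2B27, 18.2 and 9.24% in E8, and 16.9 and 8.2% in mTeSR. The list's median log2 change was 0.71, 1.01 and 0.59, against -0.03, 0.00 and -0.02 over all genes. PODXL, the podocalyxin core protein that carries primed-cell antigens, went from 27.9 ± 7.10 CPM in naive cells to 657 ± 17.6 with N2B27, 908 ± 55.2 with E8 and 848 ± 72.9 with mTeSR at day 8. ALCAM, an adhesion protein, went from 0.415 CPM to 24.1 ± 5.20, 12.2 ± 0.778 and 17.2 ± 2.94, and the hyaluronan receptor CD44 from 7.04 ± 1.67 CPM to 28.5 ± 6.79, 30.8 ± 2.27 and 38.5 ± 4.14.

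THY1 and CD24 share their GPI anchor with 11 other genes of a list, of which 4 were called higher and 2 lower in N2B27, 5 and 1 in E8, and 4 and 4 in mTeSR, beside the same shares of all genes (16.9 and 7.03%, 18.2 and 9.24%, and 16.9 and 8.2%). GPC4, a glypican, rose from 19.7 ± 1.75 CPM to 119 ± 4.43, 196 ± 21.6 and 183 ± 0.62. ALPG, a germ cell alkaline phosphatase, fell from 390 ± 204 CPM to 70.1 ± 11.5, 41.5 ± 1.73 and 18.8 ± 3.13. BST2 (tetherin) went from 1.08 ± 0.992 CPM to 20.2 ± 0.541 in N2B27 (adjusted p 1.15e-10), 1.22 ± 0.935 with E8 (adjusted p 0.773) and, by the same edgeR test, 3.18 ± 1.43 with mTeSR (adjusted p 0.0189).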
